A study of Mus musculus with 9 samples.

Results

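MHC class II molecules and the proteins that load them with peptide were followed here through 10 genes of the mouse spinal cord, out of 52550 genes counted. The 10 are H2-Aa, H2-Ab1 and H2-Eb1, which encode the classical chains, Cd74, H2-DMa, H2-DMb1 and H2-DMb2, H2-Oa and H2-Ob, and Ciita. They were chosen by name as the presentation genes of this pathway. Their fold changes between inhibitor-treated and vehicle-treated injured cords were already in view. This difference is therefore only described below, and no test of it counts as evidence. Adult female C57BL/6N mice, 9 in all, gave cord RNA for sequencing on day 7 after surgery. The study asked what inhibition of phospholipase D, an enzyme that releases phosphatidic acid from membrane lipid, changes in the injured cord. In the Sham group (n = 3) a laminectomy was made and the cord was left uninjured. In the SCI group (n = 3) the cord was contused at T10 and the mice received the vehicle DMSO. In the SCI+FIPI group (n = 3) the same contusion was followed by daily intraperitoneal FIPI, a small-molecule inhibitor of phospholipase D dissolved in DMSO. All mice underwent laminectomy, and no Sham mouse received FIPI. The paper names an injection only for the injured groups, so contusion and vehicle cannot be told apart in comparisons with Sham.

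Class II molecules are pairs of an alpha and a beta chain that carry peptides from the endosome to the cell surface, where CD4 T cells read them. New pairs are held by the invariant chain CD74, endosomal proteases cut CD74 down to a short peptide, and H2-DM exchanges that peptide for others while H2-DO holds H2-DM back. Dendritic cells, B cells and macrophages are the usual sources. In the uninjured central nervous system class II is low and sits mainly on cells of the borders and on few microglia, and it appears on microglia and infiltrating cells after damage. Transcription of most of these genes runs through a shared promoter module whose X and Y boxes are bound by RFX, CREB-family and NF-Y factors, on which the coactivator CIITA docks.

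The promoters of the members are shown first because this module ties most of them together. RefSeq promoter windows of GRCm38, from 250 bases before to 50 bases after each start site, were matched for 7 of the 10 genes, and not for H2-Ab1, Cd74 and Ciita. The 60 bases around the boxes are printed 5′ to 3′ on the coding strand for the 6 genes that held a match. Capitals mark TGATTGG, the inverted CCAAT letters of the Y box, and AACNNATGATG, letters of the X box with its neighbouring X2 part.
H2-Aa: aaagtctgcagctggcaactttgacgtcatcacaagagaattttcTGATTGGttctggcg
H2-Eb1: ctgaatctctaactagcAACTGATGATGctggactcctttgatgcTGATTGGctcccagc
H2-DMb1: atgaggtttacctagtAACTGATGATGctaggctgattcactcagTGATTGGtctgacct
H2-DMb2: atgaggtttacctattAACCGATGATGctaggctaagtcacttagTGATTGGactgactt
H2-Oa: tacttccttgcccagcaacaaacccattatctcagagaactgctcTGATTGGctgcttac
H2-Ob: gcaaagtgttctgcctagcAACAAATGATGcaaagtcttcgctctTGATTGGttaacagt

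All 6 stretches lie in the class II region of chromosome 17. The H2-Aa stretch is chr17:34287859-34287918 on the reverse strand. The others are on the forward strand, at chr17:34305761-34305820 for H2-Eb1, chr17:34153083-34153142 for H2-DMb1, chr17:34145112-34145171 for H2-DMb2, chr17:34092289-34092348 for H2-Oa and chr17:34238801-34238860 for H2-Ob. The Y letters began between 45 and 92 bases before the RefSeq start site. The X letters are the bases shared by H2-Eb1, H2-DMb1, H2-DMb2 and H2-Ob. In these genes they stood ahead of the Y letters, with 17, 18, 18 and 15 bases between the boxes. H2-DMb1 and H2-DMb2, which are neighbouring copies, were identical at 53 of the 60 bases (88.3%), whereas the other pairs of stretches shared 25% to 46.7%. Neither of the 2 H2-DMa windows held these letters.

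**Figure D1:**
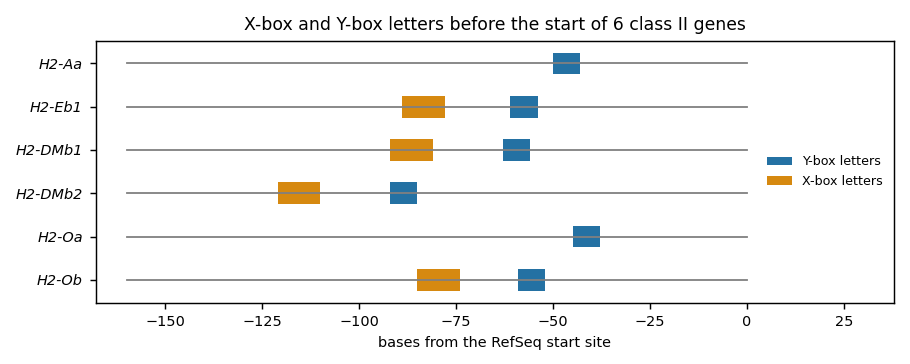
Position of the X-box letters (orange) and Y-box letters (blue) before the RefSeq start site of the 6 genes that hold a match, in bases, with the start site at 0. The Y letters lie 45 to 92 bases before the start site. The X letters precede them in the 4 genes whose shared bases define these letters.

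The letters were read from these members' own promoters, so that their presence there is no result. A match of the X letters in H2-Eb1, H2-DMb1, H2-DMb2 and H2-Ob was fixed by their definition. Whether H2-Aa, H2-Oa or H2-DMa hold an X box with other letters was not tested. Both strands were searched, and the X and Y letters do not overlap each other. Over the 32851 promoter windows of the same length, TGATTGG occurred in 2568 (7.82%) and AACNNATGATG in 45 (0.137%). Both in this order within 30 bases occurred in 4 windows (0.0122%). These were the windows of H2-Eb1, H2-DMb1, H2-DMb2 and H2-Ob, from which the X letters were built, and no others. A match is a stretch of letters and not a measured binding site.

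Counts totalled 20806000 to 24582377 per mouse, and all 10 members were among the 18699 genes with enough counts to be tested. The labelled tissue was visible in its markers, since the 10 neuron, 8 astrocyte and 8 oligodendrocyte markers examined had counts in every mouse, summing in the Sham group to 6510 to 7300, 9560 to 10100 and 32700 to 34300 CPM. CPM is the count scaled to a common library total after TMM normalization. After injury the 10 neuron markers all fell past both limits, and 6 of them were higher with FIPI than with vehicle, where 2.36% of all genes were. A gene passed both limits when its log2 fold change was at least 0.5 in size with an adjusted p under 0.05 in edgeR's quasi-likelihood test, adjusted over all genes tested. One mouse stood apart within its group for these genes. Sham mouse 2 had the highest level of its group for H2-Aa, H2-Ab1, H2-Eb1 and Cd74, and its mean log2 CPM over the 4 lay 0.41 above the group mean. For the members that followed it most closely, fold changes against Sham are also given without it.

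The presentation machinery was higher after injury, with the exception of H2-Oa. In the SCI group 9 of the 10 members were higher than in the Sham group, by 1.54-fold to 4.86-fold, and in the same 9 every SCI mouse was above every Sham mouse. Of all genes tested, 24.4% were higher past both limits and 35.6% had every SCI mouse above every Sham mouse. The median log2 fold change was 1.82 over the members and -0.00 over all genes tested. In the SCI+FIPI group the members lay between the other groups in most cases, and 8 of 10 were still higher than in the Sham group, against 21.2% of all genes. In bulk tissue, fewer cells that carry class II and less RNA per cell cannot be told apart. The comparisons share mice, so the values of one are not independent of those of the next.

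The classical alpha chain H2-Aa (chr17:34282744-34287823, reverse strand, GENCODE M21 on GRCm38) pairs with the H2-Ab1 chain to form I-A. Its levels were 9.15, 15.6 and 9.40 CPM in the Sham mice, 42.2, 53.7 and 47.0 CPM in the SCI mice and 25.1, 26.0 and 30.4 CPM in the SCI+FIPI mice. The 3 groups did not overlap. H2-Aa rose after injury with a log2 fold change of 2.06 (SE 0.199, adjusted p = 1.37e-05, n = 3 mice per group, edgeR), and of 2.36 without Sham mouse 2. It remained above Sham in the SCI+FIPI group with a log2 fold change of 1.25 (SE 0.200, adjusted p = 0.000557, edgeR), and of 1.55 without Sham mouse 2.

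The beta chain H2-Ab1 (chr17:34257689-34269419) had 10.6, 16.9 and 11.7 CPM in the Sham mice, 56.6, 71.2 and 63.3 CPM in the SCI mice and 37.4, 33.7 and 40.0 CPM in the SCI+FIPI mice. No value of one group reached into another. Its rise after injury was the largest among the members, with a log2 fold change of 2.28 (SE 0.162, adjusted p = 6.93e-07, edgeR), or 4.86-fold, and 2.51 on the log2 scale without Sham mouse 2. Against Sham, the SCI+FIPI group was higher by 1.50 (SE 0.163, adjusted p = 2.53e-05, edgeR), and by 1.73 without that mouse.

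The beta chain of I-E, H2-Eb1 (chr17:34305867-34316674), was measured at 10.5, 14.2 and 10.7 CPM in the Sham mice, 47.8, 51.7 and 53.1 CPM in the SCI mice and 27.7, 27.6 and 32.7 CPM in the SCI+FIPI mice. The groups again stood apart in full, and the spread within each was small. After injury the log2 fold change was 2.11 (SE 0.111, adjusted p = 1.19e-09, edgeR), and 2.26 without Sham mouse 2. In the SCI+FIPI group it was 1.31 above Sham (SE 0.112, adjusted p = 2.33e-07, edgeR), and 1.47 without Sham mouse 2. In C57BL/6 mice the alpha chain of I-E is not made, and its gene, annotated as H2-Ea-ps, had 0 counts in all 9 mice, where 3 counts would be 0.122 to 0.144 CPM. The related genes H2-Pa, H2-Pb and H2-Eb2 had 1, 1 and 45 counts over the 9 mice together and were not tested.

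The invariant chain Cd74, on chromosome 18, had 17.4, 27.4 and 17.0 CPM in the Sham mice, 69.8, 80.3 and 73.3 CPM in the SCI mice and 39.2, 40.5 and 52.7 CPM in the SCI+FIPI mice. SCI+FIPI mouse 3 was the highest of its group and still below every SCI mouse. The log2 fold change after injury was 1.85 (SE 0.199, adjusted p = 6.02e-05, edgeR), and 2.11 without Sham mouse 2. The remaining difference from Sham in the SCI+FIPI group was 1.10 (SE 0.200, adjusted p = 0.0018, edgeR), and 1.35 without that mouse.

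H2-DM, the peptide exchanger, is made from H2-DMa and one of the beta genes H2-DMb1 and H2-DMb2. H2-DMa (chr17:34119541-34139101) had 12.3, 12.1 and 9.44 CPM in the Sham mice, 26.4, 23.8 and 27.1 CPM in the SCI mice and 19.9, 19.8 and 23.1 CPM in the SCI+FIPI mice. The highest SCI+FIPI mouse lay just under the lowest SCI mouse. Its log2 fold change after injury was 1.20 (SE 0.110, adjusted p = 1.96e-07, edgeR), and the SCI+FIPI group stayed 0.90 above Sham (SE 0.111, adjusted p = 6.66e-06, edgeR). H2-DMa overlaps Brd2 on the opposite strand by 360 exonic bases, and whether the counting used the strand is not given in the sources used here.

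H2-DMb1 (chr17:34153072-34160230) had 4.79, 5.18 and 4.39 CPM in the Sham mice, 18.2, 18.5 and 23.8 CPM in the SCI mice and 14.4, 14.2 and 16.1 CPM in the SCI+FIPI mice. The 3 groups were separate, with SCI mouse 3 well above the other SCI mice. It rose by 2.07 on the log2 scale (SE 0.129, adjusted p = 3.68e-09, edgeR), and was 1.64 above Sham in the SCI+FIPI group (SE 0.130, adjusted p = 8.9e-08, edgeR). Its neighbour H2-DMb2 (chr17:34143307-34151555) was far lower. It had 0.671, 1.12 and 0.836 CPM in the Sham mice, 2.98, 3.23 and 2.91 CPM in the SCI mice and 2.15, 2.12 and 2.98 CPM in the SCI+FIPI mice. Both injured groups were above Sham and overlapped each other. The log2 fold change after injury was 1.78 (SE 0.246, adjusted p = 1.38e-05, edgeR) and that of SCI+FIPI against Sham was 1.45 (SE 0.250, adjusted p = 0.000155, edgeR). Without Sham mouse 2 these were 2.00 and 1.67. Of the 50-base stretches of the longest H2-DMb1 transcript, 27.2% also occur in H2-DMb2, so the split of reads between them is uncertain.

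H2-DO is the inhibitor of H2-DM. Its alpha chain H2-Oa (chr17:34092340-34095234) had 0.814, 0.518 and 0.376 CPM in the Sham mice, 0.629, 0.538 and 1.14 CPM in the SCI mice and 0.268, 1.02 and 1.05 CPM in the SCI+FIPI mice. All groups overlapped. Neither injured group passed the limits against Sham, with log2 fold changes of 0.44 (SE 0.495, adjusted p = 0.448, edgeR) and 0.47 (SE 0.495, adjusted p = 0.434, edgeR). This gene was at the edge of what the depth resolves, and 17.2% of its 50-base stretches also occur in BC051537, which overlaps it on the opposite strand. The beta chain H2-Ob (chr17:34238903-34254414) had 2.01, 1.73 and 2.01 CPM in the Sham mice, 3.35, 3.64 and 3.46 CPM in the SCI mice and 3.17, 2.50 and 3.94 CPM in the SCI+FIPI mice. Every injured mouse was above every Sham mouse, and the SCI+FIPI mice spanned the SCI range on both sides. H2-Ob rose by 0.86 (SE 0.202, adjusted p = 0.00159, edgeR) and stood 0.74 above Sham in the SCI+FIPI group (SE 0.203, adjusted p = 0.00572, edgeR).

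Ciita (chr16:10480059-10528418, forward strand), the coactivator on which transcription of the others depends, was measured at low levels. It had 2.25, 2.16 and 2.76 CPM in the Sham mice, 2.81, 3.97 and 4.26 CPM in the SCI mice and 2.41, 2.46 and 2.60 CPM in the SCI+FIPI mice. The lowest SCI mouse was only just above the highest Sham mouse, and the SCI+FIPI mice fell inside the Sham range. Its log2 fold change after injury was 0.62 (SE 0.200, adjusted p = 0.0134, edgeR). That call rested on SCI mouse 3, without which the value was 0.51 (adjusted p = 0.0636, edgeR). SCI+FIPI and Sham differed by 0.06 (SE 0.207, adjusted p = 0.823, edgeR). Ciita overlaps Dexi on the opposite strand by 329 exonic bases. For the 9 members whose SCI and Sham mice did not overlap, the exact two-sided permutation test gave p = 0.1, the smallest that 3 mice against 3 allow.

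**Figure D2:**
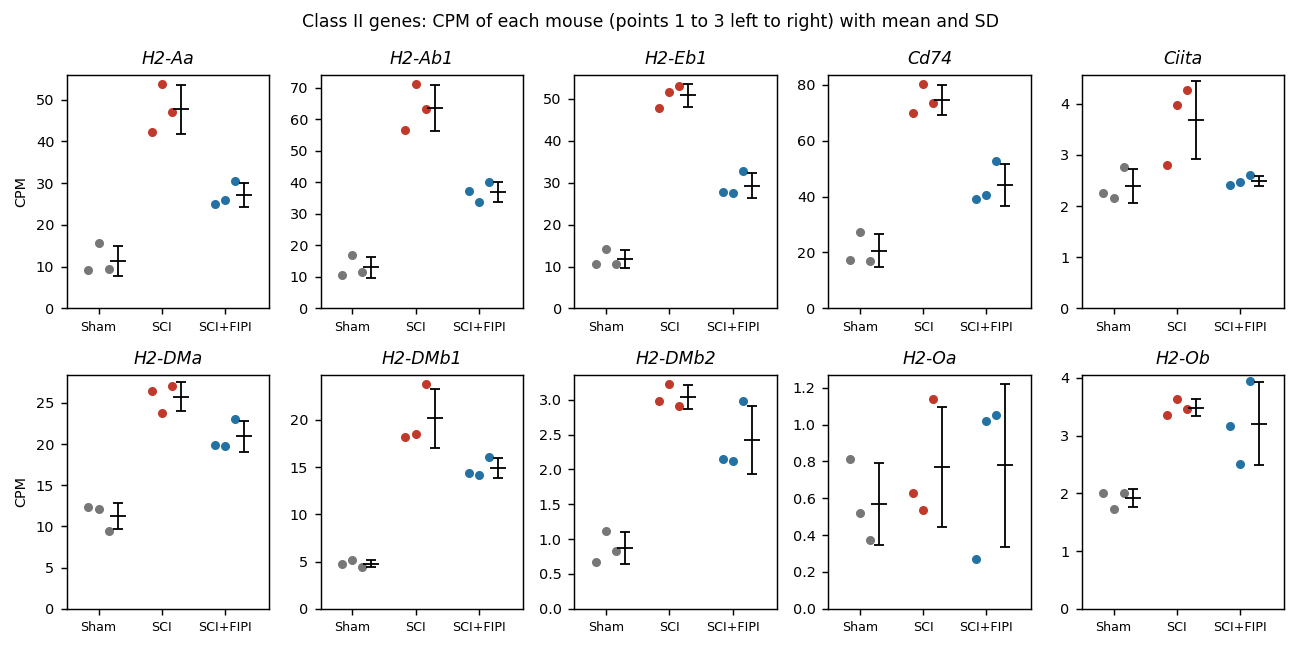
CPM of the 10 members in each mouse (points, replicates 1 to 3 from left to right) with the mean and SD of each group of 3 mice beside them, on linear axes from 0. H2-Aa, H2-Ab1, H2-Eb1 and Cd74 show 3 separate levels, Ciita in SCI+FIPI lies within the Sham range, and H2-Oa overlaps in all groups.

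Between SCI+FIPI and SCI the log2 difference was negative in 9 of the 10 members, beside 50.3% of all genes tested. These values guided the choice of the genes and are given as a description, and no test of them counts as evidence. The classical chains and Cd74 lay closely together. The log2 difference was -0.81 for H2-Aa (SE 0.185), -0.78 for H2-Ab1 (SE 0.149), -0.80 for H2-Eb1 (SE 0.103) and -0.75 for Cd74 (SE 0.188), which is 1.69-fold to 1.75-fold lower. Ciita followed with -0.56 (SE 0.199). The H2-DM genes differed by -0.44 for H2-DMb1 (SE 0.116), -0.33 for H2-DMb2 (SE 0.217) and -0.30 for H2-DMa (SE 0.105). H2-Ob differed by -0.12 (SE 0.191) and H2-Oa by 0.03 (SE 0.471). The members' median was -0.50, beside -0.00 over all genes tested.

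Past both limits as lower were 4 of the 10 members, H2-Aa, H2-Ab1, H2-Eb1 and Cd74, beside 0.695% of all genes tested. Every SCI+FIPI mouse was below every SCI mouse in 7 members, beside 14.5% of all genes tested. The limits include edgeR's adjusted p, but the genes were chosen with this difference in view. Both counts are thus descriptions, and nothing is read from either against its share of all genes. The count of members past both limits depended on single mice. It was 1, H2-Eb1 alone, without SCI mouse 3 or without SCI+FIPI mouse 2. H2-Ab1 and H2-Eb1 were the 2 without SCI mouse 2 or without SCI+FIPI mouse 1. H2-Ab1, H2-Eb1 and Cd74 remained without SCI+FIPI mouse 3. Without SCI mouse 1 the count was 5, with Ciita and H2-DMb1 in and Cd74 out. Among fits without an injured mouse, H2-Aa thus passed only without SCI mouse 1, and Cd74 only without SCI+FIPI mouse 3. With each mouse left out in turn, the log2 difference of H2-Eb1 stayed between -0.88 and -0.75 and that of H2-Ab1 between -0.86 and -0.70. H2-Aa ranged from -0.90 to -0.71 and Cd74 from -0.90 to -0.68.

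**Figure D3:**
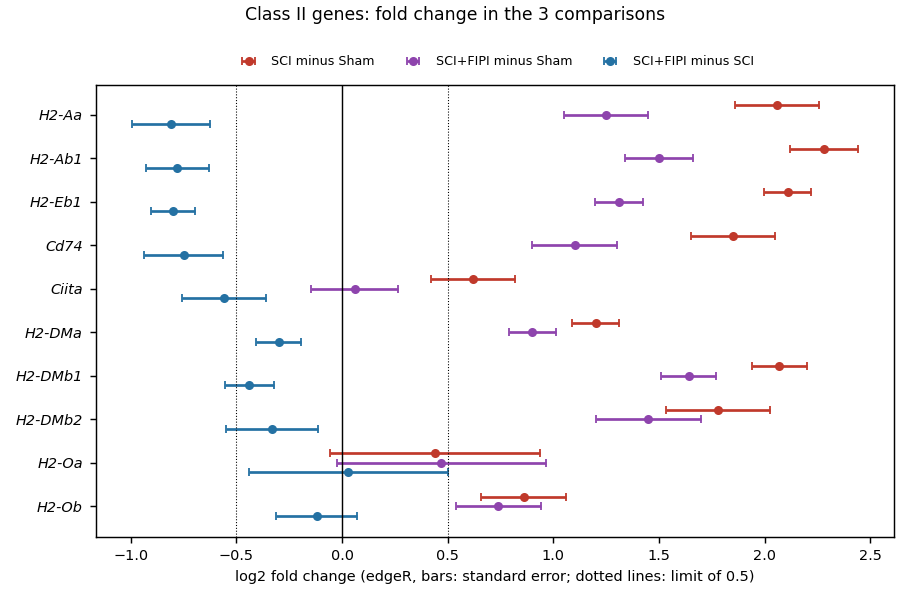
Log2 fold change of the 10 members in the 3 comparisons (edgeR, points) with standard errors (bars). Dotted lines mark the limit of 0.5. SCI minus Sham is largest for H2-Ab1 at 2.28, and SCI+FIPI minus SCI runs from -0.81 for H2-Aa to 0.03 for H2-Oa.

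Another way to place the treated mice is to set the Sham mean at 0 and the SCI mean at 100 for each gene. The SCI+FIPI mean then lay at 43.5 for H2-Aa, 43.6 for Cd74, 44.8 for H2-Eb1 and 47.4 for H2-Ab1. The H2-DM genes were nearer to the SCI level, at 65.8 for H2-DMb1, 66.6 for H2-DMa and 71.1 for H2-DMb2. H2-Ob was at 82.2, and its single mice ran from 37.3 to 129. Ciita was nearest to Sham, at 7.84, with single mice from 1.87 to 16.3. For H2-Oa, whose Sham and SCI means barely differ, the scale has no use.

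Levels of different genes were compared per length, as FPKM, the count scaled to both library total and exonic length. This length is the union of all annotated exons and exceeds the longest transcript unevenly. It is 2568 against 1212 bases for H2-Ab1, 1944 against 1669 for H2-Eb1 and 1679 against 1410 for Cd74. The order of the genes, that of Cd74, H2-Eb1 and H2-Ab1 included, depends on this choice. Levels by transcript length were not computed. By exonic length Cd74 was the most abundant member in each group, with 12.4 ± 3.71 FPKM in Sham, 43.8 ± 3.04 in SCI and 26.4 ± 4.52 in SCI+FIPI (SD, n = 3). It was followed by H2-Eb1, with 6.12 ± 1.15, 25.8 ± 1.36 and 15.1 ± 1.54 FPKM, and H2-Ab1, with 5.14 ± 1.40, 24.5 ± 2.74 and 14.5 ± 1.26 FPKM. The spreads of H2-Eb1 and H2-Ab1 overlapped in each group, although within a library H2-Eb1 was the higher of the pair in all 3 Sham mice and in 2 of 3 mice of each injured group. H2-Aa, with an exonic length of 3798 bases, was lower by this measure, at 3.03 ± 1.02, 12.4 ± 1.46 and 7.18 ± 0.771 FPKM. Without scaling to length, its SCI mean was 47.6 CPM, beside 50.9 CPM for H2-Eb1 and 20.2 CPM for H2-DMb1. In the SCI group H2-DMb1 at 11.8 ± 1.89 FPKM was level with H2-Aa within the spread, followed by H2-DMa at 7.38 ± 0.518 FPKM and H2-DMb2 at 1.72 ± 0.0887 FPKM. H2-Ob at 0.639 ± 0.0246, H2-Oa at 0.539 ± 0.228 and Ciita at 0.381 ± 0.0791 FPKM were at the bottom.

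Summed over the 10 genes, the level was 30.4, 43.4 and 29.3 FPKM in the Sham mice, 120, 135 and 132 FPKM in the SCI mice and 75.4, 75.3 and 92.0 FPKM in the SCI+FIPI mice. The groups did not overlap. Cd74 made up 31% to 38.5% of that sum in every mouse, and H2-Aa 7.95% to 10.3%. Such shares also depend on the exonic lengths used. Ciita made up 0.533% to 0.982% of it in the Sham mice and 0.244% to 0.343% in the injured mice.

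Ratios within a library describe the composition of the machinery. H2-DMa overlaps Brd2 and H2-Oa overlaps BC051537 on the opposite strand, and the use of strand in counting is not given. H2-Oa also had only 6 to 27 counts per mouse. The part of such overlaps in the ratios was not tested. The log2 ratio of H2-DMa to both H2-DMb genes, per length, was 0.14, -0.09 and -0.17 in the Sham mice, -0.71, -0.89 and -1.01 in the SCI mice and -0.76, -0.75 and -0.75 in the SCI+FIPI mice. All injured mice were below all Sham mice, and the injured groups overlapped. H2-DO to H2-DM had log2 ratios of -2.84, -3.39 and -3.19 in the Sham mice, -4.24, -4.22 and -4.03 in the SCI mice and -4.32, -3.69 and -3.60 in the SCI+FIPI mice. H2-DO RNA was thus lower relative to H2-DM RNA in every injured mouse than in every Sham mouse. Cd74 to H2-Ab1 was 1.27 ± 0.0959 in Sham, 0.84 ± 0.0659 in SCI and 0.86 ± 0.166 in SCI+FIPI (SD, n = 3). H2-Aa to H2-Ab1 was -0.78 ± 0.1 in Sham, -0.98 ± 0.0123 in SCI and -1.01 ± 0.112 in SCI+FIPI. H2-Eb1 to H2-Ab1 was 0.27 ± 0.122, 0.08 ± 0.124 and 0.06 ± 0.0837 in the same order.

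SCI against Sham gave p = 0.1 in the exact two-sided permutation test for each ratio except H2-Eb1 to H2-Ab1, where p = 0.3. Adjusted over the 6 ratios these became 0.12 and 0.3, and a design of 3 against 3 cannot go below 0.1. One of the 6, H2-DM to H2-Ab1, was chosen after its values were seen. It was 0.40 ± 0.299 on the log2 scale in Sham, -0.22 ± 0.232 in SCI and 0.18 ± 0.0696 in SCI+FIPI (SD, n = 3), so that the SCI+FIPI mean was 0.40 above the SCI mean.

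Part of the difference between mice of one group was shared by several members. Within their groups, H2-Aa, H2-Ab1, H2-Eb1 and Cd74 rose and fell together, and Sham mouse 2 was the strongest case, at 0.50, 0.40, 0.28 and 0.44 above its group mean on the log2 scale. SCI+FIPI mouse 3 was the highest of its group for the same 4, at 0.17, 0.11, 0.16 and 0.27 above the mean. H2-DMb2 followed them, with Pearson's r = 0.899 across 9 mice between its group-centred log2 CPM and their mean. H2-DMb1 had r = 0.481, H2-DMa 0.36, H2-Oa 0.0661, H2-Ob 0.0569 and Ciita 0.0136. These are descriptions of 9 libraries in which Sham mouse 2 carries the largest deviation.

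**Figure D4:**
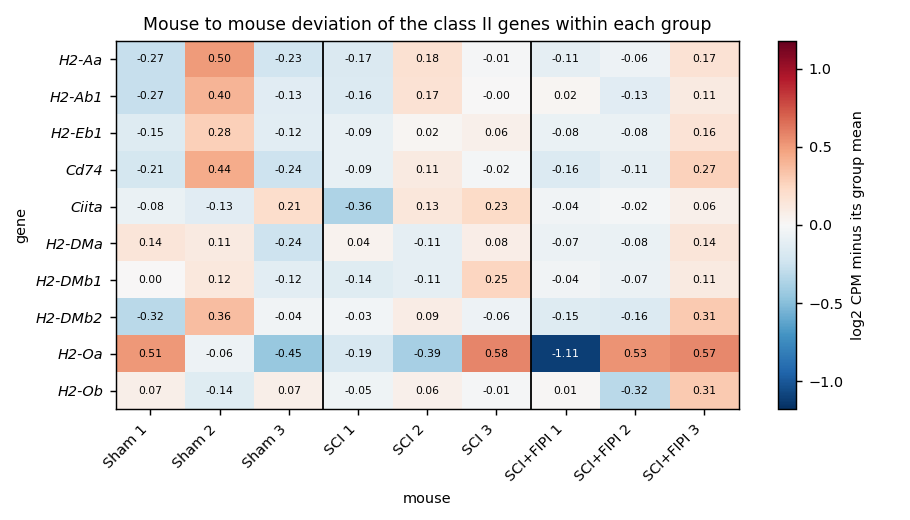
Log2 CPM of each member in each mouse minus the mean of its group (colour and printed value). H2-Aa, H2-Ab1, H2-Eb1 and Cd74 are 0.28 to 0.50 above the group mean in Sham mouse 2, while Ciita is at -0.13 there. The widest spread is that of H2-Oa, the member with the lowest counts.

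By the same measure over 14545 genes, those most like the mean of the 4 were C1ra with r = 0.981, Gbp2 with 0.980, Anxa2 with 0.974, Rhbdf1 with 0.969 and Glis2 with 0.966. Ifitm3, Batf3, Slc2a4, Egr2 and Upp1 followed with r between 0.957 and 0.946. Among the 10, C1ra encodes a complement protease, Gbp2 and Ifitm3 are interferon-induced, and Batf3 is a transcription factor of dendritic cells. No theme of the list was tested. The 10 were taken as the highest of 14545 values of r, so the size of r is a description. Between SCI+FIPI and SCI these 10 genes had log2 differences from -0.25 for C1ra to -0.01 for Batf3. Gbp2, for example, had 16.9, 23.5 and 19.8 CPM in the SCI mice and 16.6, 18.4 and 21.2 CPM in the SCI+FIPI mice.

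The wider pathway was read from 8 lists outside the members, with 77 genes in the table and 62 tested. After injury 38 of the 62 rose past both limits and 1 fell, where 24.4% and 22.5% of all genes did, with a median log2 fold change of 1.06. Between SCI+FIPI and SCI, none of the 62 passed both limits in edgeR's quasi-likelihood test and none in DESeq2, and 3.06% of all genes did in edgeR. In the same comparison 25 of the 62 had an unadjusted p under 0.05, 24 of them lower, against 25.2% and 11.5% of all genes, and 9 had an adjusted p under 0.05 with a fold change short of the limit. The sign was negative in 50 of the 62 (80.6%), against 50.3% of all genes, with a median of -0.21. Without SCI mouse 1, Nfya and Pdcd1lg2 passed both limits as lower, and without SCI+FIPI mouse 1, Nfya and Ctsl did.

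Among the factors that bind the X and Y boxes, 9 were tested, and 3 rose and 1 fell after injury. Nfya, the DNA-contacting subunit of NF-Y, had 23.3, 23.3 and 26.3 CPM in the Sham mice, 63.7, 72.4 and 77.0 CPM in the SCI mice and 55.4, 46.1 and 51.5 CPM in the SCI+FIPI mice. Its 3 groups were separate. It rose by 1.55 (SE 0.0884, adjusted p = 1.76e-09, edgeR) and was lower in SCI+FIPI by 0.48 on the log2 scale (SE 0.0843, adjusted p = 0.00565, edgeR), just short of the fold limit. Its partners Nfyb and Nfyc stayed within the limits after injury, at -0.29 and 0.04. Atf1 and Crem of the CREB family also rose, by 1.12 and 0.64, while Creb1 had 0.06. Of the RFX subunits, Rfxap fell by 0.56 (SE 0.0761, adjusted p = 1.18e-05, edgeR), and Rfx5 and Rfxank had -0.28 and 0.02. Over all pathway lists, and not these factors alone, 2 genes were lower after injury without the filter on low counts.

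Of the genes that lead from interferon-gamma to Ciita, 11 were tested and 6 rose after injury. Irf8, a myeloid transcription factor, had 26.1, 19.2 and 15.0 CPM in the Sham mice, 118, 110 and 135 CPM in the SCI mice and 102, 82.1 and 86.2 CPM in the SCI+FIPI mice. It rose by 2.59 (SE 0.193, adjusted p = 6.32e-06, edgeR), and its difference between SCI+FIPI and SCI was -0.42 (adjusted p = 0.182, edgeR). The receptor chains Ifngr1 and Ifngr2 rose by 1.42 and 0.90, Irf1 by 1.40, Socs1 by 1.15 and Gbp2 by 0.74. The kinases Jak1 and Jak2 had -0.01 and 0.09. Ifng itself had 0 counts in all 9 mice, so that its RNA was not detectable at this depth, where 3 counts would be 0.122 to 0.144 CPM.

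The endosomal proteases, their inhibitor Cst3, the reductase Ifi30 and the endosomal membrane protein Cd63 make up the next list. All 15 tested rose after injury, by 0.52 to 3.67. Ctsb, the most abundant, had 1150, 1030 and 957 CPM in the Sham mice, 7160, 6840 and 7910 CPM in the SCI mice and 6830, 5200 and 5520 CPM in the SCI+FIPI mice. All SCI+FIPI mice were below the SCI mice, but only by 6830 against 6840 CPM at the border. Ctss, which makes the last cut in CD74, rose by 2.65 (SE 0.173, adjusted p = 8.25e-07, edgeR) and Ctsd by 3.67 (SE 0.148, adjusted p = 2.56e-09, edgeR). Between SCI+FIPI and SCI all 15 were negative, from -0.46 to -0.07, and none passed both limits in edgeR or DESeq2, although 11 had an unadjusted p under 0.05.

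CD74 is also a surface receptor for the cytokine MIF, together with CD44 and the chemokine receptors CXCR2, CXCR4 and ACKR3. Of these 6 genes with Ddt, 3 rose after injury, Cxcr4 by 3.28, Cd44 by 1.95 and Ackr3 by 1.15. Mif was level, with 94.9 to 98.2 CPM in the Sham mice, 86.9 to 94.9 CPM in the SCI mice and 90.1 to 93.4 CPM in the SCI+FIPI mice. In the list for turnover, which holds the ubiquitin ligases March1 and March8 and their antagonist Cd83, only Wwp2 passed both limits after injury, at 0.59, of 5 tested. March1 and March8 had -0.15 and 0.24, and Cd83 had -0.16.

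Other ligands accompany class II at the contact with T cells. All 8 costimulatory and checkpoint ligands tested were higher after injury, among them Vsir by 1.75, Lgals9 by 1.87, Cd274 by 0.99 and Icosl by 0.82. From SCI to SCI+FIPI they ranged from -0.57 for Cd40 to 0.01 for Icosl, and none passed both limits in edgeR or DESeq2, with 4 at an unadjusted p under 0.05. On the T cell side, the most abundant gene was Lag3, a checkpoint receptor that binds class II. It had 24.1, 19.8 and 14.0 CPM in the Sham mice, 31.7, 25.9 and 30.4 CPM in the SCI mice and 20.7, 34.9 and 29.5 CPM in the SCI+FIPI mice. Its log2 fold change after injury was 0.61 and did not pass (adjusted p = 0.0563, edgeR). Genes of the T cell receptor complex were scarce. Cd3d, Cd3e, Cd3g and Trbc1 had 31, 66, 63 and 34 counts over the 9 mice together and were not tested. In Sham, SCI and SCI+FIPI, Cd3e had 41, 10 and 15 of these counts and Cd3d 19, 10 and 2. For Cd3g they were 24, 24 and 15, and for Trbc1 13, 13 and 8. Sham mouse 2 had the highest Cd3e, at 1.17 CPM. In some fits with 1 mouse left out, Cd3e was tested and was lower after injury, with log2 fold changes from -2.49 to -1.99. Trac had 1.47 to 2.85 CPM in all mice. Cd28 and Cd4 rose by 5.62 and 2.37, the 2 of 8 tested that did. Cd28 had 0.125 to 0.346 CPM in the Sham mice, 8.97 to 15.0 CPM in the SCI mice and 6.17 to 11.7 CPM in the SCI+FIPI mice.

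**Figure D5:**
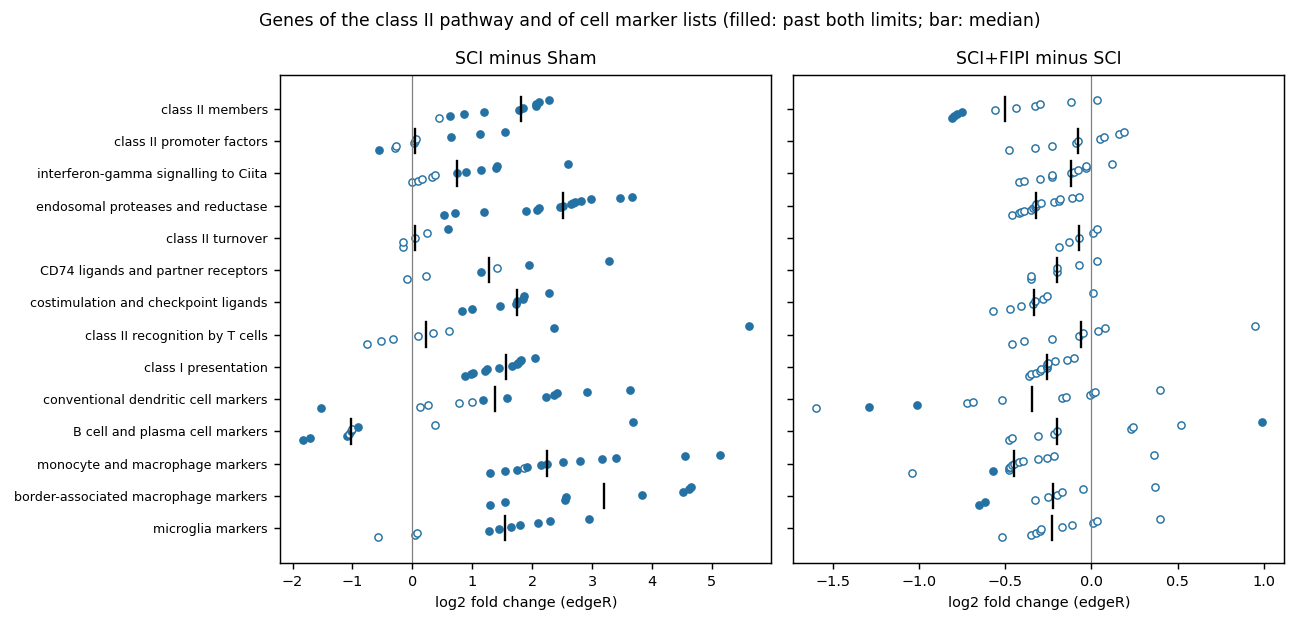
Log2 fold changes (edgeR) of the members, of the pathway lists and of the class I and cell marker lists, 1 point per gene tested. Filled points passed both limits and bars mark list medians. After injury most lists lie to the right of 0, and from SCI to SCI+FIPI the filled points are the 4 members H2-Aa, H2-Ab1, H2-Eb1 and Cd74 and 6 marker genes. The members were chosen with the latter comparison in view.

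Class I presentation served as the nearest comparison. All 12 genes tested, among them H2-K1, H2-D1, B2m and Tap1, rose after injury by 0.87 to 2.05, and all 12 stayed above Sham in the SCI+FIPI group. Between SCI+FIPI and SCI they ranged from -0.36 to -0.10 with a median of -0.26, and none passed both limits in edgeR or DESeq2, with 4 at an unadjusted p under 0.05. B2m shared the pattern of Sham mouse 2, with 182, 261 and 156 CPM in the Sham mice. The difference between the class I and class II values was not tested.

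Markers of cells that can carry class II were read beside these genes, and the lists did not all move alike. Of 13 monocyte and macrophage markers, 12 rose after injury. Their summed level was 355 to 495 CPM in Sham, 5910 to 7040 CPM in SCI and 4210 to 5490 CPM in SCI+FIPI. Lyz2 carried most of it in the injured groups, with means of 4530 CPM in SCI and 3400 CPM in SCI+FIPI. The 8 markers of border-associated macrophages all rose, with sums of 51.6 to 56.3, 867 to 1050 and 544 to 719 CPM. Stab1 carried most of these sums, with means of 31.7, 719 and 467 CPM in the same order. Between SCI+FIPI and SCI the 8 ran from -0.65 to 0.37, with a median of -0.23. Clec4n and Stab1 were lower in SCI+FIPI, by 0.65 and 0.62 (adjusted p = 0.0248 and 0.0119, edgeR). Of 10 microglia markers 7 rose, with sums of 374 to 473, 1270 to 1520 and 1100 to 1170 CPM, while P2ry12, Sall1 and Siglech had 0.04, 0.08 and -0.57 and did not pass. None of the 10 passed both limits between SCI+FIPI and SCI in edgeR, where 4 had an unadjusted p under 0.05, and 1 did in DESeq2.

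Conventional dendritic cell markers were scarcer. Of 12 tested, 7 rose after injury and Flt3 fell, and their sums were 61.9 to 69.0 CPM in Sham, 103 to 104 CPM in SCI and 77.7 to 84.6 CPM in SCI+FIPI. Flt3 and Itgax carried most of these sums and moved in opposite directions after injury. In Sham, SCI and SCI+FIPI, Flt3 had means of 33.9, 11.7 and 15.4 CPM and Itgax of 10.3, 54.6 and 33.8 CPM. The lectin genes Cd209a and Clec10a were lower in SCI+FIPI. Cd209a had 0.881, 1.53 and 1.60 CPM in the SCI mice and 0.715, 0.339 and 0.587 CPM in the SCI+FIPI mice, a log2 difference of -1.29 (SE 0.375, adjusted p = 0.0444, edgeR). Clec10a had 3.27, 4.18 and 4.01 CPM in the SCI mice and 1.21, 2.63 and 1.85 CPM in the SCI+FIPI mice, a difference of -1.01 (SE 0.256, adjusted p = 0.0254, edgeR). DESeq2 called 1 of the 12 markers. Zbtb46, which separates conventional dendritic cells from macrophages, had 7.28 to 8.47 CPM in Sham, 9.02 to 9.63 CPM in SCI and 7.78 to 8.64 CPM in SCI+FIPI.

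B cell and plasma cell markers mostly went the other way. Of 9 tested, 5 fell after injury, where 22.5% of all genes did, and Cd22, which microglia and macrophages also express, rose. Their sums were 65.9 to 80.5 CPM in Sham, 49.5 to 61.8 CPM in SCI and 57.2 to 73.4 CPM in SCI+FIPI, and 2 genes that moved in opposite directions after injury carried most of them. Ighm, the heavy chain of IgM, had means of 62.2, 19.0 and 37.5 CPM in Sham, SCI and SCI+FIPI, and Cd22 had 2.43, 30.9 and 22.4 CPM. Ighm was higher in SCI+FIPI than in SCI, by 0.99 (adjusted p = 0.0108, edgeR). No gene of these 5 marker lists was at 0 in any mouse. The part of these cell markers in the class II levels was not tested.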

How the data were processed

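Poly(A) RNA of a cord segment around the injury was sequenced in 9 mice. The authors trimmed the reads, counted them on each gene and deposited raw counts of 52550 genes, without normalization. Per the submitters' notes the build is GRCm 38 and R 4.2.3 was used. The aligner, the counting program and the use of strand are not given in the sources used here. Totals of 20806000 to 24582377 counts per mouse set the precision, so that genes near 1 CPM rest on few counts.

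The tests were run with edgeR 4.0.16 under R 4.3.3. Scaling was by TMM, filterByExpr kept 18699 genes, and a robust quasi-likelihood model with 1 mean per group was fitted to all 9 mice (6 residual degrees of freedom, biological coefficient of variation 9.3%), with Benjamini-Hochberg adjustment over all genes tested. The limits, a log2 fold change of 0.5 and an adjusted p-value of 0.05, follow the study's methods, which name no test. Identifiers, exonic lengths and coordinates are from GENCODE M21 on GRCm38. Mice within a group were distinct libraries, since their chi-square per gene of 6.62 to 12.9 exceeded sampling noise. Group-centred values used log2 CPM with a prior count of 2. Python 3.11.15, numpy 2.4.6 and matplotlib 3.10.9 served for sequences and figures, and the fit was tested on simulated data.

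The members and the gene lists were chosen with earlier results of these data known. Named were all members, from each list the genes past both limits between SCI+FIPI and SCI or otherwise up to 4 with the highest mean CPM, and the 10 genes most like the mean of H2-Aa, H2-Ab1, H2-Eb1 and Cd74 at a mean log2 CPM of at least 1. Other list genes were named after their values were seen. Alternatives were RLE factors, no filter, a minimum count of 10 per mouse, a block for the replicate number, fits to only the groups compared, DESeq2 1.42.0, offsets for GC content and length (known for 99.9% of genes), plain count ratios, and each mouse left out in turn. Single values of some list genes are not reported here.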

Additional observations from a re-analysis of the deposited data

How the results depend on the processing

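Under RLE factors, a minimum of 10 counts in every mouse, fits to only the groups compared, DESeq2 and offsets for GC content and length, every count and every member kept its direction and its side of the limits where it could be fitted, and plain count ratios kept their sign. Without a filter, Cd74 in SCI+FIPI minus SCI was -0.76 and no longer past both limits, and 2 pathway genes were lower after injury in place of 1. Same-numbered mice of different groups are different animals. Their deviations correlated between -0.13 and 0.192, and 4 of 9 mice were closest to their own number, so the numbers do not pair them. With the replicate number as a block, 8744, 555 and 7115 genes were called in SCI minus Sham, SCI+FIPI minus SCI and SCI+FIPI minus Sham, with 9, 4 and 8 members among them, and no call of a member changed.

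With 1 mouse left out, genes called ranged from 8373 to 8851 in SCI minus Sham, between 189 with SCI+FIPI mouse 2 left out and 1038 with SCI mouse 1 left out in SCI+FIPI minus SCI against 572 with all mice, and from 6675 to 7186 in SCI+FIPI minus Sham. The share of the 572 that was higher, 77.3%, ranged from 64.2% to 87.8%. Members called ranged from 8 to 9, from 1 to 5 and from 8 to 8 in the same order. The range from 1 to 5 is a description, as the members were chosen with that comparison in view. Pathway genes called after injury ranged from 37 to 40 higher and from 1 to 2 lower, and between SCI+FIPI and SCI from 0 to 2 lower. Among the values of the members and ratios, signs turned for those near 0. In SCI+FIPI minus SCI, H2-Oa ranged from -0.24 to 0.42 (-0.09, -0.17, -0.21 and -0.24 without SCI mouse 1, SCI mouse 2, SCI+FIPI mouse 2 and SCI+FIPI mouse 3) and H2-Ob from -0.30 to 0.03. Ciita in SCI+FIPI minus Sham ranged from -0.01 to 0.18. The log2 ratios in SCI+FIPI minus SCI ranged from -0.09 to 0.03 for H2-Eb1 to H2-Ab1 (0.02, 0.01 and 0.03 where positive), from -0.06 to 0.10 for Cd74 to H2-Ab1 (-0.01 and -0.06 where negative) and from -0.07 to 0.04 for H2-Aa to H2-Ab1. The cause of these changes was not tested. At this depth H2-Oa and H2-DMb2 rest on few reads.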
